A study of Mus musculus with 2 samples.

Results

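Nr3c1, Hsd11b1, Tsc22d3, Fkbp5, Sgk1, Ddit4, Zbtb16, Txnip, Mt1 and Mt2, 10 glucocorticoid-responsive and metallothionein genes, were examined in RNA sequencing of aortic macrophages from dyslipidemic mice. They comprise the glucocorticoid receptor, the enzyme that reactivates its hormone, 6 genes known to respond to the hormone and 2 metallothioneins. They were taken by gene symbol, and 10 of 10 were found on 1 row each among the 54532 genes of the table. The data came from 2 libraries of sorted F4/80 and CD11b labelled cells, 1 for the phlegm-dampness retention (PDR) group and 1 for the spleen and kidney Yang deficiency (SKYD) group. Both groups were male ApoE-/- mice on a C57BL/6J background, labelled as 6 weeks of age, and the cells of 5 mice were pooled for each library. PDR mice received a high-fat diet for 4 weeks. SKYD mice received propylthiouracil, an inhibitor of thyroid hormone synthesis, for 4 weeks by gavage at 10 mg/kg per day and then the high-fat diet for 2 weeks. All mice were fasted for 18 h before sampling. No gavage is described for PDR mice. The methods give the same age of 6 weeks for the animals used, and no separate age at sampling. Syndrome model, drug, gavage, length of diet, time to sampling and age at sampling therefore cannot be told apart. Because each group has 1 library, no p-value was computed.

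Glucocorticoids are adrenal steroid hormones that pass into cells and bind the glucocorticoid receptor, which is held in the cytoplasm by heat shock chaperones and then moves to the nucleus. There it raises the transcription of one set of genes and lowers that of many inflammatory mediators, and in macrophages the hormone is known for damping cytokine and chemokine output. Metallothioneins are small cysteine-rich proteins that bind zinc and copper, and their genes respond to metals, to glucocorticoids and to inflammation.

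Most of the 10 genes were higher in the SKYD library. By reads, Mt2 was 37.3-fold higher there, followed by Zbtb16 at 21.8-fold, Mt1 at 18.9-fold, Fkbp5 at 10.1-fold, Ddit4 at 6.94-fold and Tsc22d3 at 3.04-fold. The intervals of Mt2, Zbtb16 and Mt1 overlap, and Mt2 and Zbtb16 had 7 and 6 reads in PDR. The receptor Nr3c1, Txnip and Sgk1 were also higher in SKYD, by smaller amounts. Hsd11b1 alone among the 10 was higher in PDR, by 1.60-fold. The plot of levels shows both libraries for each gene.

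**Figure D1:**
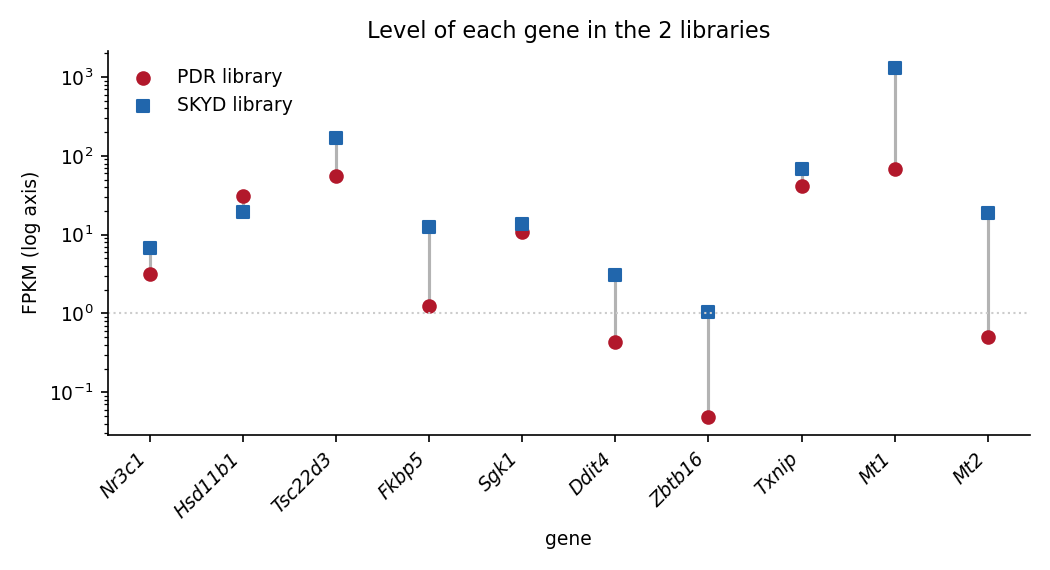
FPKM of the 10 genes (log axis) in the PDR library (circles) and the SKYD library (squares), 1 pooled library each, with a dotted line at an FPKM of 1. Mt1 was at 68.5 in PDR and 1296 in SKYD, while Hsd11b1 is the gene whose circle lies above its square.

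Levels are FPKM, fragments scaled to gene length and library size, as deposited. Reads were recovered from them and sum to 23086889 on genes in PDR and 25427863 in SKYD. Differences are log2(FPKM + 1), PDR minus SKYD, so that a negative value means a higher level in SKYD. This scale understates the change of genes with a low level, and the fold by reads per library size is therefore given as well. Intervals are 95% intervals from exact Clopper-Pearson limits on the split of a gene's reads. Variation between mice is not part of them. Gene positions are given on GRCm38, which the deposited positions match.

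The comparison was limited to genes whose FPKM averaged 1 or more over both libraries, which 9 of the 10 met and Zbtb16 did not. Mt2 and Ddit4 had an FPKM under 1 in PDR and passed through their SKYD level. The size of their log2 differences depends on the pseudocount, and at a pseudocount of 0.01 they were -5.19 and -2.77. More than 2-fold higher in SKYD on the log2(FPKM + 1) scale were 5 of the 9, namely Mt1, Mt2, Fkbp5, Tsc22d3 and Ddit4, beside 6.91% of the 10399 genes compared. More than 2-fold higher in PDR were 0 of the 9, beside 7.38% of all genes, and 14.3% of all genes passed 2-fold in either direction. By any amount, 8 of the 9 were higher in SKYD, beside 50.4% of all genes. The median difference of the 9 was -1.49, and that of all genes compared was -0.0035. These are descriptions of single pooled libraries, for genes chosen with earlier results of these data known.

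**Figure D2:**
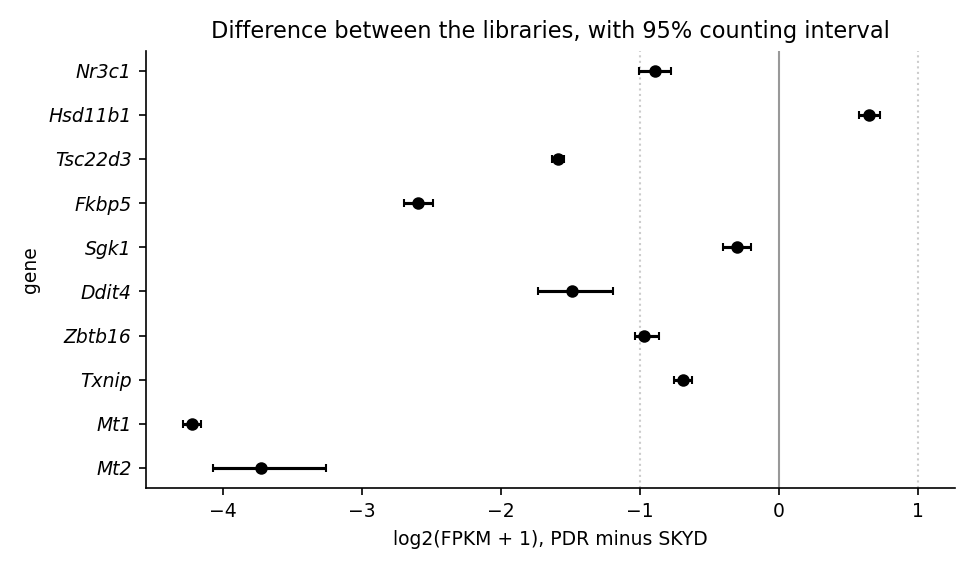
Difference in log2(FPKM + 1), PDR minus SKYD, for the 10 genes, with bars for the 95% counting interval and dotted lines at 2-fold. Mt1 and Mt2 lie lowest, at -4.22 and -3.72, and Hsd11b1 lies to the right of 0 at 0.65.

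The receptor and the enzyme that supplies its ligand moved in opposite directions. Nr3c1 (ENSMUSG00000024431, chromosome 18 from 39410545 to 39491301, minus strand), which encodes the glucocorticoid receptor, had an FPKM of 3.18 in PDR and 6.77 in SKYD, from 555 and 1256 reads. The difference was -0.89 (95% CI -1.01 to -0.78), and by reads the gene was 2.13-fold higher in SKYD (95% CI 1.92 to 2.35). Its rank by FPKM among the 10399 genes was 6873 in PDR and 4843 in SKYD, where 1 is the most abundant.

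Hsd11b1 (ENSMUSG00000016194, chromosome 1 from 193221634 to 193264075, minus strand) encodes the enzyme that turns inactive 11-dehydrocorticosterone into active corticosterone inside cells. Its FPKM was 31.2 in PDR and 19.5 in SKYD, from 3118 and 2076 reads, with a difference of 0.65 (95% CI 0.57 to 0.73). Lamb3, which overlaps it on the opposite strand, had 120 reads in PDR and 63 in SKYD. Liver expresses Hsd11b1 strongly, and hepatocyte markers were higher in PDR for 16 of 16 genes, with a median difference of 1.76 and 0.308% of reads in PDR (95% CI 0.305 to 0.310) against 0.0899% in SKYD (95% CI 0.0888 to 0.0911). Fibroblast markers, of another cell type known for this enzyme, had 1812 reads in PDR and 6997 in SKYD and were higher in SKYD by reads in 8 of 8 genes. In such pooled samples fewer cells of a type and less RNA per cell cannot be told apart, and the part of these cells in the result was not tested. Hsd11b2, which encodes the inactivating enzyme, had 0 reads in both libraries, each count of 0 allowing up to 3. Nr3c2, which encodes the mineralocorticoid receptor, had 17 reads in PDR and 9 in SKYD. Both were named for their roles after their values were seen.

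The 6 target genes were higher in SKYD in 6 of 6 cases by reads, with Zbtb16 at 6 reads in PDR. Of the 5 that passed the filter, 5 were higher in SKYD, beside 50.4% of all genes compared. Sgk1 changed direction when differences were taken relative to the macrophage markers, as given below. Tsc22d3 (ENSMUSG00000031431, chromosome X from 140539528 to 140600659, minus strand) encodes GILZ, a leucine zipper protein that restrains NF-κB and AP-1. It was the most abundant target, with an FPKM of 55.9 in PDR and 170 in SKYD, from 5695 and 18416 reads. The difference was -1.59 (95% CI -1.63 to -1.54), or 3.04-fold higher in SKYD by reads (95% CI 2.95 to 3.13), and its rank was 1302 in PDR and 485 in SKYD.

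Fkbp5 (ENSMUSG00000024222, chromosome 17 from 28399094 to 28517527, minus strand) encodes FKBP51, a co-chaperone that lowers the affinity of the receptor for hormone and closes a feedback loop. Its FPKM was 1.25 in PDR and 12.6 in SKYD, from 278 and 2975 reads. The difference was -2.59 (95% CI -2.70 to -2.49), the largest on the log2(FPKM + 1) scale among the 5 targets that passed the filter. By reads its fold was 10.1 (95% CI 8.89 to 11.4), which overlaps the interval of Ddit4 (95% CI 4.23 to 12.1). The chaperone of the same family, Fkbp4, which is not known as a target of this kind, differed by 0.22 and was named after its value was seen.

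Ddit4 and Zbtb16 had few reads in PDR. For Ddit4 (ENSMUSG00000020108, chromosome 10 from 59949669 to 59951834, minus strand), which encodes the mTORC1 inhibitor REDD1, the FPKM was 0.437 in PDR and 3.03 in SKYD. Its 18 and 133 reads gave a fold of 6.94 (95% CI 4.23 to 12.1) and a difference of -1.49 (95% CI -1.73 to -1.20). For Zbtb16 (ENSMUSG00000066687, chromosome 9 from 48654297 to 48836222, minus strand), which encodes the zinc finger repressor PLZF, the FPKM was 0.0484 in PDR and 1.05 in SKYD. The 6 and 139 reads correspond to a fold of 21.8 (95% CI 9.75 to 60.3), while the log2(FPKM + 1) difference of this low gene was -0.97. PLZF also marks innate-like T cells, and T cell markers were higher in SKYD in 10 of 10 genes, with a median difference of -2.30. The part of T cells in the difference of Zbtb16 was not tested.

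Txnip and Sgk1 differed least among the targets. Txnip (ENSMUSG00000038393, chromosome 3 from 96557957 to 96561883, plus strand) encodes an arrestin that binds thioredoxin and limits glucose uptake, and its transcription also follows glucose. Its FPKM was 41.4 in PDR and 67.5 in SKYD, from 3039 and 5272 reads, a difference of -0.69 (95% CI -0.76 to -0.63). Of the 64-base windows of its transcripts, 14.6% also lie in the antisense gene Gm15441, which had 26 reads in PDR and 77 in SKYD. Whether the counting used strand is not given in the sources used here. Sgk1 (ENSMUSG00000019970, chromosome 10 from 21882184 to 21999903, plus strand) encodes a kinase that acts on ion channels and survival factors. It had an FPKM of 10.7 in PDR and 13.5 in SKYD, from 1237 and 1650 reads, with a difference of -0.30 (95% CI -0.40 to -0.20) and a fold of 1.25. Sgk1 was the target with the smallest difference.

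The metallothionein genes lie side by side on chromosome 8 and showed the largest differences of the 10 on the log2(FPKM + 1) scale. Mt1 (ENSMUSG00000031765, from 94179082 to 94180327, plus strand) had an FPKM of 68.5 in PDR and 1296 in SKYD, from 2005 and 40374 reads. The difference was -4.22 (95% CI -4.29 to -4.16), and by reads Mt1 was 18.9-fold higher in SKYD (95% CI 18.1 to 19.8). Its share of all reads on genes was 0.00868% in PDR and 0.159% in SKYD, and its rank was 1112 in PDR and 55 in SKYD. Only 0.154% of the 10399 genes had a lower difference.

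Mt2 (ENSMUSG00000031762, from 94172664 to 94173568, plus strand) had an FPKM of 0.507 in PDR and 18.9 in SKYD, from 7 and 278 reads. The difference was -3.72 (95% CI -4.07 to -3.26), and the fold by reads was 37.3 with a wide interval (95% CI 17.9 to 93.7). Mt2 was far below Mt1 in both libraries, at 0.348% of the reads of the pair in PDR and 0.684% in SKYD. Of the 64-base windows of Mt2, 36.7% also lie in the antisense gene Gm45774, which had 1 read in PDR and 18 in SKYD, and the part of this overlap in the level of Mt2 was not tested. The table gives Mt1 a length of 1246 bases, equal to its whole span with introns, which lowers its FPKM in both libraries alike. Mt1 shared 0% of its windows with another gene. The other genes of the cluster were near the limit of detection. Mt4 had 0 reads in PDR, which allows up to 3, and 17 in SKYD. Against 3 reads in PDR this is at least 5.33-fold higher in SKYD, and with the counting error of the 17 reads included the lower limit is 3.88-fold. Mt3 had 18 and 8 reads, a fold of 2.39 towards PDR with an interval that includes equality (95% CI 0.991 to 6.36). Mtf1, which encodes the zinc sensor that drives metallothionein transcription, had a difference of -0.27 (95% CI -0.41 to -0.13). Mt3, Mt4 and Mtf1 were named for their roles after their values were seen.

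Promoter sequence of the genes was read from RefSeq (GRCm38.p6) as windows from 250 bases before an annotated start to 50 bases after it, and 8 of the 10 genes matched, with 15 windows. Nr3c1 and Zbtb16 are named only. Sgk1 and Tsc22d3 have several windows each, so counts of windows are not counts of genes. Motifs of 3 kinds were searched on both strands. The receptor palindrome, GNACANNNTGTNC, was present in 3 of the 15 windows, those of Mt1, Txnip and one start of Sgk1, and in 0.475% of all 32851 windows. The metal element, TGCGCNC or TGCACNC, was present in 6 of the 15 and in 25.7% of all windows. An E-box, CACGTG, was present in 2 of the 15 and in 7.15% of all windows. The windows of Tsc22d3 held none of these letters. A match of letters is a description and not a binding site. Sequence outside the windows was not searched, so a missing match says nothing about sites further away.

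The windows of both metallothionein genes are shown because these genes differed most on the log2(FPKM + 1) scale, each up to 30 bases past the annotated start, with capitals for the matches. In Mt1 (chr8:94178839-94179118, plus strand) the capitals mark, in order, the palindrome and 3 metal elements. In Mt2 (chr8:94172368-94172647, plus strand) they mark 4 metal elements, of which the last 2 lie on the opposite strand.
Mt1: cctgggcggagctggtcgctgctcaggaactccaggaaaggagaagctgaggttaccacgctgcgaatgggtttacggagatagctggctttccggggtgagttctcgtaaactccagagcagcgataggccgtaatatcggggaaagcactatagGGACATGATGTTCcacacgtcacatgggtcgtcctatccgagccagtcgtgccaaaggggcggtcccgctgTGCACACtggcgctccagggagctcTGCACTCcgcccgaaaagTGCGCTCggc
Mt2: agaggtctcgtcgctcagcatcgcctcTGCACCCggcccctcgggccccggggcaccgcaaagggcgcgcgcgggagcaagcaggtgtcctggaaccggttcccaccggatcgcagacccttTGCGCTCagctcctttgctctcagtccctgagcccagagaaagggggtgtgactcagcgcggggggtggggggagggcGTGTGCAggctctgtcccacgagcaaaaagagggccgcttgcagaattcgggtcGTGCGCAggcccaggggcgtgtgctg

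Shorter stretches around the matches of the other genes follow, for comparison with those windows. In Txnip (chr3:96557734-96557812, plus strand) capitals mark a metal element and then the palindrome. In the first Sgk1 stretch (chr10:21993640-21993729, plus strand) they mark an E-box and then the palindrome, and in the second (chr10:21994662-21994695, plus strand) a metal element on the opposite strand. In Ddit4 (chr10:59951933-59951969, minus strand) and Hsd11b1 (chr1:193242576-193242610, minus strand) they mark a metal element, on the opposite strand in the latter. In Fkbp5 (chr17:28486298-28486333, minus strand) they mark an E-box. For the Sgk1 stretches, upstream and downstream are relative to each other, and other annotated Sgk1 starts lie further upstream.
Txnip: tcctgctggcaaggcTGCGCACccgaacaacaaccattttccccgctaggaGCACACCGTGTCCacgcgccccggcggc
Sgk1, upstream start: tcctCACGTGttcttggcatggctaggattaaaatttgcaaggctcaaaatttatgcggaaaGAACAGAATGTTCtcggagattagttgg
Sgk1, downstream start: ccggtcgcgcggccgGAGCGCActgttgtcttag
Ddit4: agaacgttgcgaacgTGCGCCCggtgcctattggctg
Hsd11b1: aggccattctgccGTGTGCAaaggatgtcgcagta
Fkbp5: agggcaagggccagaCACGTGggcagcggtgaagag
Set beside the levels, the palindrome was found in the window of Mt1, which differed by -4.22. It was also found in those of Txnip and Sgk1, which differed by -0.69 and -0.30. It was not found in the windows of Mt2, at -3.72, Fkbp5, at -2.59, Tsc22d3, at -1.59, Ddit4, at -1.49, and Hsd11b1, at 0.65. These absences cover the short windows only, and whether the genes hold the palindrome elsewhere was not tested.

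Other genes of the pathway were compared in 5 lists, which were chosen with earlier results of these data known. Their counts beside the share of all genes are therefore descriptions and not independent support. The first holds the receptor's chaperones and cofactors, the related receptor gene Nr3c2, the enzyme genes Hsd11b2 and H6pd and the transporter genes Abcb1a and Abcb1b. Of its 18 genes, 11 passed the filter, 7 were higher in PDR and 4 in SKYD, 0 passed 2-fold in either direction, beside 14.3% of all genes, and the median was 0.048. The most abundant were the chaperones Hspa8, with a difference of 0.92 (95% CI 0.90 to 0.94), and Hsp90ab1, with 0.015 (95% CI -0.013 to 0.043), and the co-chaperone Bag1, with 0.048. The co-chaperone Stip1 differed by 0.71 and the corepressor Nrip1 by -0.88. By reads Nrip1 was 2.93-fold higher in SKYD (95% CI 2.51 to 3.44), and its FPKM in PDR was under 1.

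The second list holds 24 other genes commonly induced by glucocorticoid. Of the 21 that passed the filter, 14 were higher in SKYD and 7 in PDR, with a median of -0.58. More than 2-fold higher in SKYD were 8, beside the 6.91% of all genes, and 0 were more than 2-fold higher in PDR. Klf4 and Cd163, among the 8, had an FPKM under 1 in PDR and passed the filter through SKYD. The largest differences were those of Thbs1, -3.19, of Klf9, -2.35, and of Il1r2, -2.25. Thbs1 encodes thrombospondin and is also abundant in platelets, and the platelet markers did not move together. Pf4 had 3690 reads in PDR and 26049 in SKYD, while the other 5 were higher in PDR by reads, and the median of the 4 that passed the filter was 0.27. The part of platelets in the difference of Thbs1 was not tested. Klf9 encodes a transcription factor that is a direct target of the receptor in many tissues, and its FPKM was 1.49 in PDR and 11.7 in SKYD, from 114 and 956 reads. Il1r2 encodes the decoy receptor for interleukin-1, with an FPKM of 23.6 in PDR and 116 in SKYD. The most abundant genes differed less. Anxa1, which encodes annexin A1, differed by -0.47, Nfkbia, which encodes the NF-κB inhibitor IκBα, by -1.07, and Cebpb by -0.89. Per1, the clock gene known to respond to the hormone, was under the filter, with 18 and 128 reads, and was named after its values were seen. The list was uneven. Angptl4 was 2.01-fold higher in PDR by reads (95% CI 1.67 to 2.43), with a difference of 0.76, and Irs2 was 1.85-fold higher there (95% CI 1.63 to 2.11), with 0.68. Zfp36, Rgs2 and Tgm2 differed by 0.10, 0.037 and 0.028. These genes were also named after their values were seen.

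The third list holds 17 inflammatory genes commonly repressed by glucocorticoid. Of the 15 that passed the filter, 12 were higher in PDR and 3 in SKYD, with a median of 1.33. More than 2-fold higher in PDR were 8, beside the 7.38% of all genes, and 0 were more than 2-fold higher in SKYD. Il12a and Il12b, among the 8, had an FPKM under 1 in SKYD and passed the filter through PDR. The interferon-inducible chemokine gene Cxcl10 differed by 3.37, Ccl2, which encodes the monocyte chemoattractant MCP-1, by 2.09 and Tnf by 1.71. Ccl5, among the most abundant of the list, differed by 1.69. Il1b differed by only 0.33, and Il6, named after its value was seen, by -0.51. Several of these genes, Cxcl10 and Ccl5 among them, also respond to interferon, and the part of the hormone in these differences was not tested.

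The fourth list holds 23 genes of zinc and copper handling, of which 15 passed the filter. Of the 15, 0 passed 2-fold in either direction, beside 14.3% of all genes, 8 were higher in PDR and 7 in SKYD, and the median was 0.032. The copper chaperone gene Atox1 differed by -0.40, the copper transporter genes Slc31a2 and Slc31a1 by 0.10 and 0.73, and Ccs by -0.21. The zinc transporter genes Slc30a7 and Slc39a1 differed by 0.58 and 0.47. The fifth list holds 8 genes of thioredoxin and glucose sensing, set beside Txnip. Of the 8, 0 passed 2-fold, beside the same 14.3%, 3 were higher in PDR and 5 in SKYD, with a median of -0.15. Txn1, which encodes the thioredoxin that Txnip binds, differed by -0.17, Txn2 by -0.13 and Mlx by 0.12. The glucose-sensing factor genes Mlxip and Mlxipl differed by -0.94 and -0.62, and Txnrd1 by -0.36. By reads Mlxip was 2.54-fold higher in SKYD (95% CI 2.22 to 2.93). In lists of this size a count of 0 past 2-fold is close to the share of all genes and is no result about the receptor machinery, metal or thioredoxin genes.

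**Figure D3:**
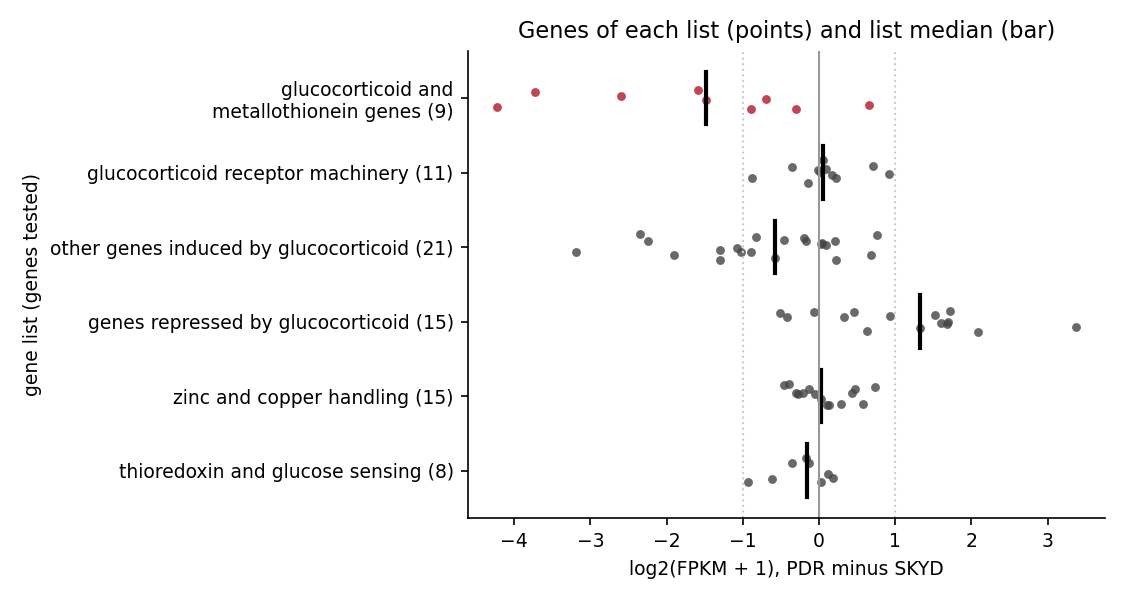
Differences in log2(FPKM + 1), PDR minus SKYD, of the genes that passed the filter in each list (points, spread vertically for legibility), with bars for the medians and dotted lines at 2-fold. The median was -1.49 for the 9 genes studied, -0.58 for other induced genes and 1.33 for repressed genes, and lay near 0 for the receptor machinery and for zinc and copper handling.

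The libraries also differed in the genes that mark cell types, and these values stand beside the results above. Macrophage markers had a median difference of -0.61 over 14 genes, 10 of them higher in SKYD and 4 in PDR. They took 3.40% of reads in PDR and 6.31% in SKYD. Most of these reads came from Lyz2 alone, 686737 of 785075 in PDR and 1359594 of 1603667 in SKYD. The gene of the sort marker F4/80, Adgre1, differed by -0.095 and that of CD11b, Itgam, by -0.64, both named after their values were seen. The abundant Lyz2 and C1qb differed by -0.90 and -1.25. The 4 higher in PDR were Csf1r at 0.35, Fcgr1 at 0.54, Marco at 0.84 and Timd4 at 0.0050, also named after their values were seen. The macrophage list ran from -2.65 to 0.84, so its median stands for markers that did not move together. T cell markers were higher in SKYD in 10 of 10 genes, with a median of -2.30, 0.0490% against 0.291% of reads, and Cd8b1 at -3.72. Markers of immature T cells had 41 reads in PDR and 15581 in SKYD, most of them from Dntt with 39 and 10953. For 5 of 5 of these genes the FPKM in PDR was under 1, so their log2 differences are set by the pseudocount and are not given. B cell markers were higher in PDR in 8 of 8 genes, with a median of 2.22 and Cd79a at 1.70, and NK cell markers in 5 of 5, with 7086 reads in PDR and 3314 in SKYD. Neutrophil markers had a median of 0.93, with S100a9 at 0.40. Among hepatocyte markers Apoa2 differed by 1.43, and among fibroblast markers Dcn differed by -1.87. Of the smooth muscle markers, 4 of 5 had 0 reads in both libraries and Acta2 had 65 in PDR and 104 in SKYD. Endothelial markers had 623 reads in PDR and 439 in SKYD. Lymphocytes are known to express Tsc22d3, Txnip and Ddit4, and liver to express Mt1, Mt2 and Hsd11b1. The sort on F4/80 and CD11b was meant to select macrophages and leave such cells out. Tsc22d3, Txnip and Ddit4 were higher in SKYD, as T cell markers were, while B cell and NK cell markers were higher in PDR. Hepatocyte markers were higher in PDR, as Hsd11b1 was, while Mt1 and Mt2 were higher in SKYD. The median of the macrophage markers lay on the SKYD side. The part of these cell types in the differences was not tested.

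**Figure D4:**
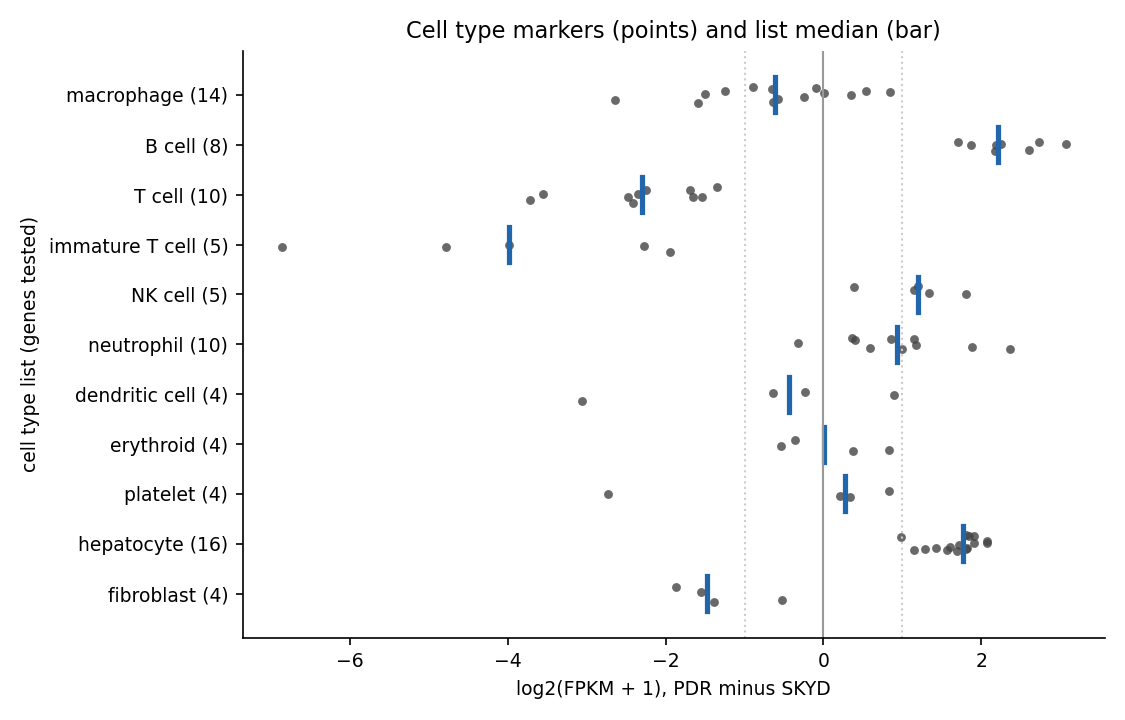
Differences in log2(FPKM + 1), PDR minus SKYD, of cell type markers that passed the filter, for lists with at least 3 such genes (points), with bars for the medians and dotted lines at 2-fold. The place of the immature T cell genes depends on the pseudocount, and hepatocyte markers, with a median of 1.76, and B cell markers, with 2.22, lie on the PDR side, and T cell markers, with -2.30, on the SKYD side.

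Taking each difference relative to the macrophage median moved every value up by 0.61. On that scale Mt1 was at -3.61, Mt2 at -3.11 and Fkbp5 at -1.98, and Tsc22d3 and Ddit4, at -0.97 and -0.88, were no longer past 2-fold. More than 2-fold higher in SKYD were then 3 of the 9, beside 3.26% of all genes. Nr3c1 was at -0.28 and Txnip at -0.080. Sgk1 turned to 0.31, Hsd11b1 passed 2-fold at 1.26, as 22.8% of all genes did towards PDR, and the median of the other induced genes turned to 0.031.

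**Figure D5:**
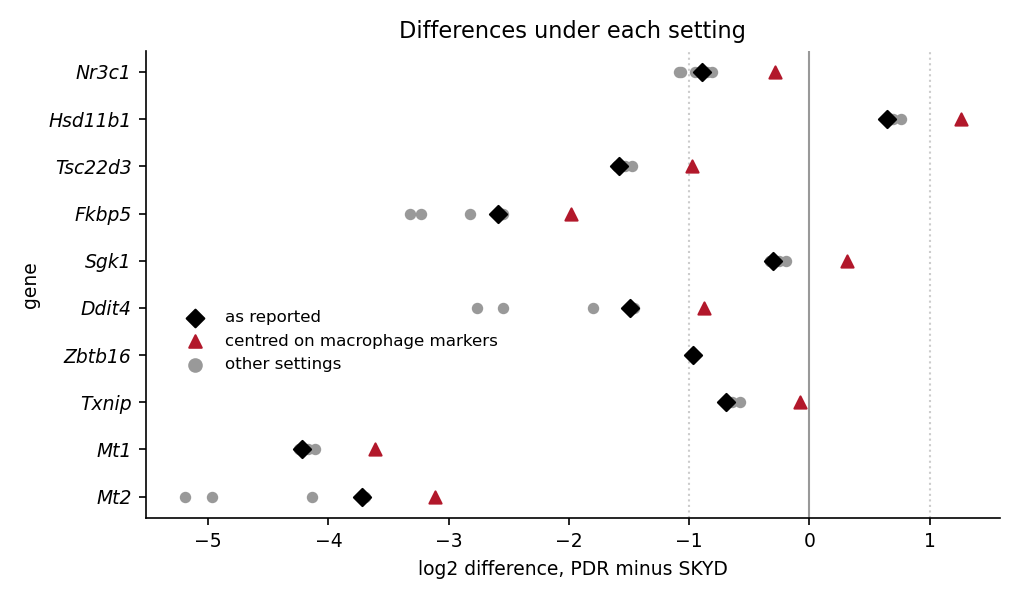
Log2 difference, PDR minus SKYD, of each gene as reported (diamonds), centred on the macrophage markers (triangles) and under the other settings (circles), with dotted lines at 2-fold. Mt1, Mt2 and Fkbp5 lie past 2-fold on the SKYD side under each setting shown, Sgk1 crosses 0 under macrophage centring, and Zbtb16 is shown at its value with no filter.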

How the data were processed

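Sorted cells of 5 mice per group were pooled and sequenced as paired reads. Per the labels and methods, the authors removed low-quality reads, aligned with TopHat 2.0.9 and Bowtie2 2.0.6, counted reads per gene with HTSeq 0.6.1 and deposited FPKM. The labels give the build as mm9, but the deposited positions equal those of GENCODE on GRCm38 for 98.3% of 54409 shared genes, and for 9 of the 10 genes studied (Nr3c1 has the same start and another end).

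To recover reads, FPKM was multiplied by gene length, and the smallest product above 0 in a library was taken as 1 read. All 17738 genes above 0 in PDR and 20499 in SKYD came out whole within 0.01. A gene entered the comparison, on the log2(FPKM + 1) scale, when its FPKM averaged 1 or more, and differences past 2-fold were counted. A count of 0 allows up to 3 reads, a share of 1.3e-05% in PDR and 1.18e-05% in SKYD. The steps were tested on simulated data. Genes named from the 5 lists were the 3 most abundant and the 3 with the largest difference, and from cell type lists 1 or both of the 2 most abundant, for the lists described. The 10 genes, the lists and the motifs were chosen with earlier results of these data known. One listed erythroid marker, Ahsp, is not analysed here. Alternatives were other pseudocounts, filters, scalings and thresholds. Tables were handled with pandas 2.3.3 and numpy 2.4.6 under Python 3.11.15, intervals came from scipy 1.17.1, and plots were drawn in matplotlib 3.10.9.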

Additional observations from a re-analysis of the deposited data

How the results depend on the processing

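With 1 library a group, no replicate could be left out. No paired analysis was possible because each group has 1 library. Over 11 alternatives each, Mt1 ranged from -4.24 to -3.61 and Fkbp5 from -3.32 to -1.98, and Mt2 from -5.19 to -3.11 with 11 of 11 past 2-fold. Of the 9 genes compared, Sgk1 changed direction, under macrophage centring, and Nr3c1 passed 2-fold in 2 of 10, the lower pseudocounts, at up to -1.09. Centring on macrophage markers moved the count past 2-fold in SKYD from 5 to 3 and in PDR from 0 to 1 (beside 22.8% of all genes), the median of the genes studied to -0.88, and the list medians to 0.66 for receptor machinery, 0.031 for induced, 1.94 for repressed, 0.64 for metal and 0.46 for thioredoxin genes. It shifts all genes by 0.61, by construction. At 4-fold, 3 genes were higher in SKYD, beside 2.08% of all genes. At 1.5-fold 7 were higher in SKYD, beside 15% of all genes, and 1 in PDR, beside 15.1%. The repressed median was 1.46 at a pseudocount of 0.1, 1.47 at 0.01, 0.93 without a filter and 1.13 at a mean FPKM of at least 5, where the machinery median was 0.17 and the induced median -0.86. Scaling to the sum of reads gave -0.10 for thioredoxin genes. Scaling without antigen receptor and haemoglobin genes, added after the data were seen, gave 0.15 for machinery and -0.038 for thioredoxin genes. By construction, a filter changes which genes enter a list and a lower pseudocount shrinks differences less. Without a filter Nos2, at 0.13, and Ptgs2, at 0.59, enter the repressed list. Depth limits Mt2, Ddit4 and Zbtb16, with at most 18 reads in PDR.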

Other observations

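Relatives of the genes studied, picked after the results above were seen, were looked up on the same scale, log2(FPKM + 1), PDR minus SKYD. Tsc22d1 and Tsc22d4, which encode proteins with the same TSC22 domain as GILZ, differed by -0.66 and -0.64, less than the -1.59 of Tsc22d3. Tsc22d2, under the filter, was on the other side, with 136 reads in PDR and 93 in SKYD, 1.56-fold higher in PDR (95% CI 1.19 to 2.05). Among other FK506-binding protein genes, Fkbp7 differed by -1.32 and Fkbp9 by -1.06, both higher in SKYD and both known as proteins of the endoplasmic reticulum. Fkbp9 had an FPKM of 0.552 in PDR and passed the filter through SKYD. Its 43 reads in PDR and 185 in SKYD gave a fold of 4.04 (95% CI 2.89 to 5.77). Fkbp11, another protein of that compartment that is abundant in antibody-secreting cells, was higher in PDR, with a difference of 1.06. Fkbp1a, the abundant cytosolic member, had an FPKM of 40.2 in PDR and 65.9 in SKYD, a difference of -0.70. Fkbp10 was under the filter, with 4 reads in PDR and 68 in SKYD, 16.0-fold higher in SKYD by reads (95% CI 5.96 to 60.3), an interval that includes the 10.1-fold of Fkbp5. Sgk3 differed by 0.27, opposite in sign to Sgk1, and Sgk2 had 0 reads in both libraries. Ddit4l, the relative of Ddit4, had 8 reads in PDR and 12 in SKYD. These values have no replicate check.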
